A study of Mus musculus with 6 samples.

Results

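Cell adhesion molecules of the immunoglobulin type and a few others that share their place on the cell surface were examined as 10 genes: Vcam1, Icam1, Ncam1, Alcam, Mcam, L1cam, Bcam, Cd44, Thy1 and Ninj1. Each gene was found by its symbol in the platform annotation. Each had 1 probe set, and all 10 passed the filter on intensity, out of 17145 genes tested. The cells were NIH/3T3, an immortalized line of mouse fibroblasts, kept in DMEM medium that held calf serum at 10% and, at 2 µg/ml, α-amanitin, a mushroom toxin that blocks RNA polymerase II. Both groups were stably transfected with HA-tagged mouse RPB1, the largest subunit of that polymerase. In 3 samples it was wild type (WT), and in 3 samples every lysine at position 7 of its C-terminal repeats was changed to arginine (8KR), which keeps the charge and prevents acetylation. The sources used here do not say whether each group came from 1 clone or from a pool of transfected cells, and differences between the lines that do not depend on the mutation cannot be told apart from it. The sample names start with A in all WT samples and with C in all 8KR samples, and the meaning of these letters is not given.

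Adhesion molecules of the immunoglobulin superfamily carry folded extracellular domains that bind a partner on another cell or in the matrix. Vcam1 and Icam1 bind integrins of white blood cells, Ncam1, L1cam and Alcam bind copies of themselves on neighboring cells, and Mcam and Bcam bind laminins. Thy1 is a small immunoglobulin protein held in the membrane by a lipid anchor and is a common surface marker of fibroblasts. Cd44 and Ninj1 have no immunoglobulin domain: Cd44 is the main cell surface receptor for hyaluronan, and Ninj1 is a small membrane protein that mediates adhesion and takes part in plasma membrane rupture.

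Gene expression was measured as log2 intensity on 1 Affymetrix Mouse Gene 1.0 ST array per sample. Median log2 intensities were 4.49 to 4.54 over the 6 arrays, and correlations between arrays were 0.982 to 0.984 within groups and 0.975 to 0.978 between them. Polr2a, which encodes RPB1, lay at 12.1 on all 6 arrays, and its probe set cannot tell the transfected copy from the cell's own or show the substitutions. Of 14 fibroblast markers, 12 were tested, with S100a4, Vim and Sparc the brightest, and 4 of them were lower in 8KR cells (Loxl1, Pdgfra, Sparc and Col3a1). With 1 array left out, 2 of these 4 markers passed. The 4 are 33.3% of the 12, beside 5.39% of all tested genes that passed the same test. Of the 12, 10 had a lower mean in 8KR cells and 7 had an unadjusted p under 0.05 from limma. The summed intensity of the fibroblast markers, on the log2 scale, was 14.3 on all WT arrays and 14.1 on all 8KR arrays. None of the tested markers of endothelial (8), leukocyte (6), neural (9) and epithelial (9) cells passed the test by limma. An unadjusted p under 0.05 was found for 2, 0, 0 and 1 of them, and for 21.8% of all tested genes. The brightest of each were Flt1, Cd68, Sox10 and Krt8, with mean log2 intensities of 5.41, 5.09, 5.04 and 5.85, and the summed intensities of each list overlapped between the groups. The part of the lower fibroblast markers in the results below was not tested.

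Vcam1 rose and Ninj1 fell in 8KR cells, and the other 8 adhesion molecules did not pass the test. A gene was called at an adjusted p under 0.05 from limma, with adjustment by the Benjamini-Hochberg method over all tested probe sets. By the same rule, 5.39% of all tested genes were called, 2.33% higher and 3.06% lower in 8KR cells. The median log2 difference (8KR minus WT) of the 10 genes was -0.02, beside 0.01 for all tested genes, with 4 genes above 0 and 6 below. For 4 of the 10 genes (Vcam1, Mcam, Cd44 and Ninj1), the arrays of the groups did not overlap, as was so for 29.7% of all tested genes. A count of 2 calls among 10 genes chosen with results known is a description and says nothing particular about adhesion molecules.

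**Figure D1:**
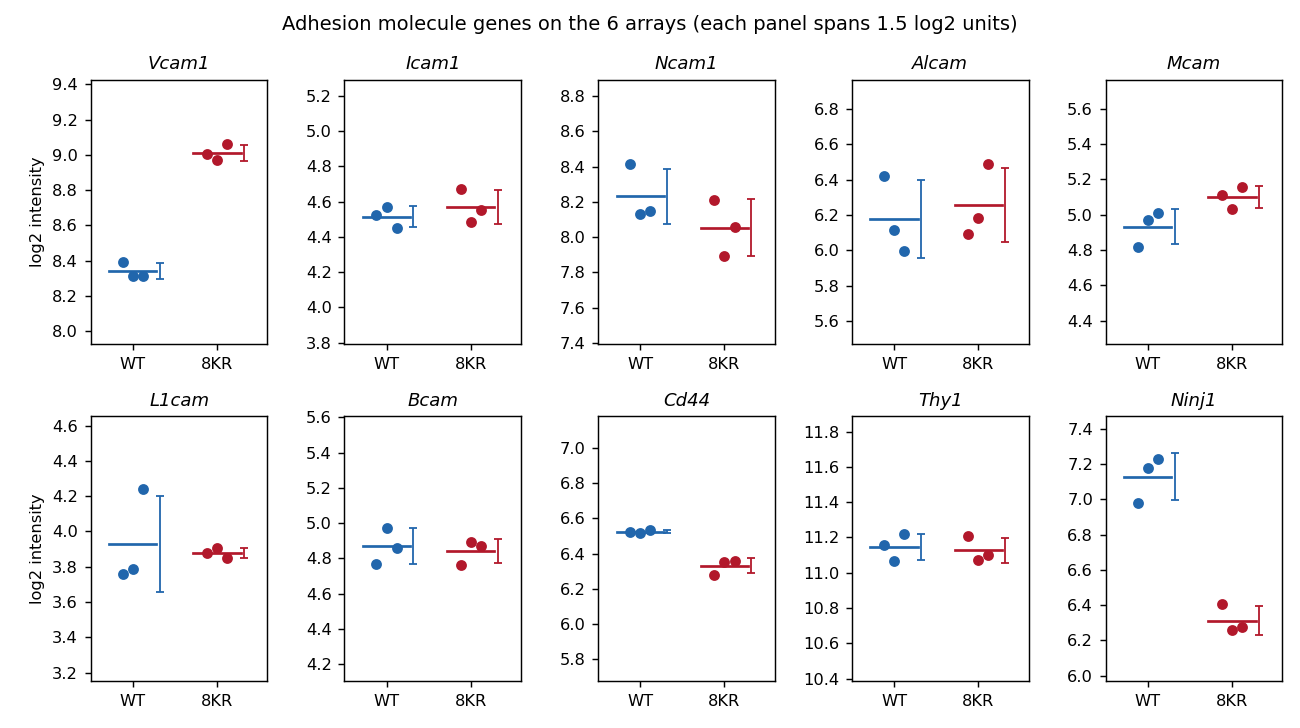
Log2 intensity (vertical axis) of the 10 adhesion molecule genes in WT (blue, 3 arrays) and 8KR (red, 3 arrays). Points are arrays, horizontal lines are group means and the bars beside them show 1 SD either way. Vcam1 lies higher on all 8KR arrays and Ninj1 lower, Cd44 and Mcam are separated by small gaps, and the other 6 genes overlap.

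Vcam1 encodes a ligand of the integrin α4β1 and is best known for the capture of white blood cells on inflamed endothelium, and it is also made by stromal cells. Its log2 intensity was 8.395, 8.314 and 8.313 on the WT arrays and 9.003, 8.970 and 9.060 on the 8KR arrays. The lowest 8KR array lay 0.58 above the highest WT array, whereas arrays of 1 group spanned at most 0.09. The mean rose from 8.34 ± 0.05 to 9.01 ± 0.05 (SD, n = 3 each), a log2 difference of 0.67 (standard error 0.07, adjusted p = 0.0092 from limma). This is 1.59-fold, with a 95% interval of 1.41-fold to 1.80-fold. Of all tested genes, 1.45% had a larger rise. Vcam1 was called with each of the 6 arrays left out in turn, though narrowly. The adjusted p from limma was 0.0415 to 0.0484 in these fits, close to the threshold of 0.05. In RNA from whole cultures, more cells that express a gene and more RNA per cell cannot be told apart.

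Icam1, the other ligand of white blood cell integrins and like Vcam1 a known target of the transcription factor NF-κB, showed no such separation. Its log2 intensity was 4.52, 4.57 and 4.45 on the WT arrays and 4.67, 4.48 and 4.55 on the 8KR arrays, so the groups overlapped. The log2 difference was 0.05 (standard error 0.08, adjusted p = 0.787 from limma), and the 95% interval ran from 0.901-fold to 1.20-fold. Both of its means lay below 5.0 and near the median of the arrays. To set the 2 changes side by side, the log2 intensity of Icam1 was subtracted from that of Vcam1 on each array. The estimated change of Vcam1 was larger than that of Icam1 by 0.62 on the log2 scale (p = 0.1, two-sided exact permutation test). This is the smallest p that the test can give with 3 arrays against 3. It could not fall under 0.05, so the test does not decide whether the changes differ.

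Promoter sequences were available from RefSeq (GRCm38.p6) for 7 of the 10 genes. Vcam1, Ncam1 and Thy1 had none, so whether Vcam1 holds a κB site was not examined. The sequences of Icam1 and Ninj1 are shown as an integrin ligand that did not pass beside the gene that fell. Each is the 250 bases before the annotated start, 5′ to 3′. In Icam1 (chr9:21015690-21015939, plus strand) the capitals mark the letters of a κB site, GGAAATTCC. In Ninj1 (chr13:49187279-49187528, plus strand) they mark GC boxes, GGGCGG on either strand, the letters that factors of the Sp family bind.
Icam1: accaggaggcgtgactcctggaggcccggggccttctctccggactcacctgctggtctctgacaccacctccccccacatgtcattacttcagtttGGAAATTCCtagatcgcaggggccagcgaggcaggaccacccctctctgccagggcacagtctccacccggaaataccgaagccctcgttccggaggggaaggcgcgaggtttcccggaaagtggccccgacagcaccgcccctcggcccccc
Ninj1: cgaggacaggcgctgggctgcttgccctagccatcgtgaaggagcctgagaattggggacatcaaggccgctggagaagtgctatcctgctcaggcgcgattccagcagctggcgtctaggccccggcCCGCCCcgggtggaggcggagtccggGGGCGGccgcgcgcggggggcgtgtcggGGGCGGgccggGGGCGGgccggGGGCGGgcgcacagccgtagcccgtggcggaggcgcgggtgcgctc
The κB letters, read on both strands, occur in 0.286% of the 32851 promoter windows of this length and, among the 7 genes, in Icam1 alone. Only these exact letters were searched, so κB sites with other letters were not counted in any window. GC boxes occur in 32.7% of the windows. The Ninj1 window holds 5 of them and has 76.0% G and C, and the Mcam window also holds 5, at 73.6% G and C. Alcam had 2, L1cam had 1 in each of its windows and Icam1 had 1, whereas Bcam and Cd44 had none. These are matches of letters and do not show binding. No κB match overlapped a GC box in these windows.

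Ninj1, first described as a protein induced by nerve injury, was the adhesion molecule with the largest difference among the 10. Its log2 intensity was 6.98, 7.18 and 7.23 on the WT arrays and 6.41, 6.26 and 6.27 on the 8KR arrays. All 8KR arrays lay below all WT arrays, by 0.57 at the nearest. The mean fell from 7.13 ± 0.13 to 6.31 ± 0.08 (SD, n = 3 each), a log2 difference of -0.82 (standard error 0.10, adjusted p = 0.0133 from limma), which leaves 0.568 of the WT intensity (95% interval 0.481 to 0.671). Of all tested genes, 1.20% had a larger fall. The call depended on the arrays included: the adjusted p from limma was 0.0584 without WT replicate 2, 0.0568 without WT replicate 3, 0.0595 without 8KR replicate 2 and 0.0604 without 8KR replicate 3, while the log2 difference stayed between -0.89 and -0.76. Ninj2, its paralog, had a log2 difference of -0.47 with a 95% interval of -1.29 to 0.36 and did not pass.

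**Figure D2:**
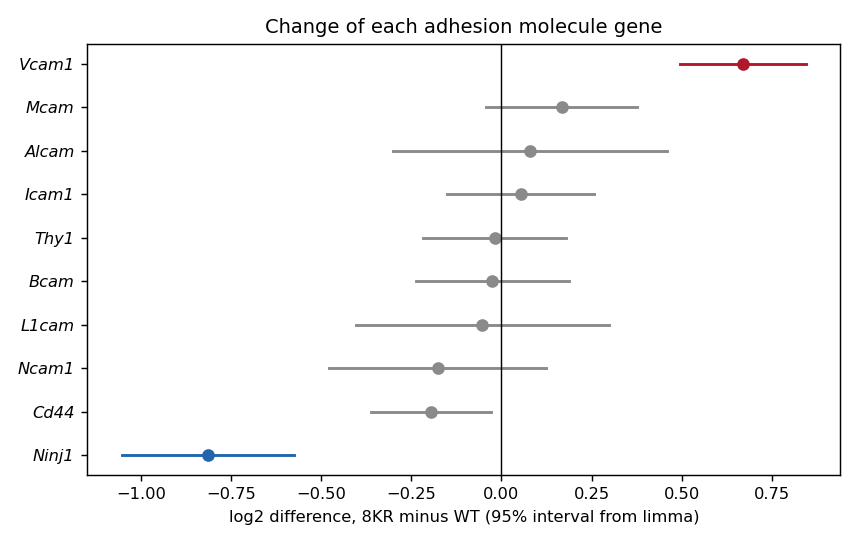
Log2 difference (8KR minus WT, horizontal axis) of each adhesion molecule gene, with the 95% interval from limma as a line and 3 arrays per group. Vcam1 (red) and Ninj1 (blue) passed the test, and the intervals of the other genes (gray) include 0 except that of Cd44, which ends at -0.03.

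Cd44, the hyaluronan receptor, was slightly lower on every 8KR array without passing. Its log2 intensity was 6.52, 6.52 and 6.54 on the WT arrays and 6.28, 6.35 and 6.36 on the 8KR arrays. The WT arrays spanned 0.02 and the groups were 0.16 apart at the nearest. The log2 difference of -0.19 (standard error 0.07) had an unadjusted p of 0.029 and an adjusted p of 0.191 from limma, and the 95% interval was 0.778 to 0.981 of the WT intensity. The probe set reads the gene as a whole, so the variant exons for which Cd44 is known were not resolved.

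Thy1, the fibroblast surface marker, had the smallest difference of the 10. Its log2 intensity was 11.15, 11.07 and 11.22 on the WT arrays and 11.21, 11.07 and 11.10 on the 8KR arrays. The groups overlapped over nearly their whole range. The log2 difference was -0.02 (standard error 0.08, adjusted p = 0.926 from limma), and the 95% interval of 0.860-fold to 1.13-fold bounds any change more narrowly than for most of the others.

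Ncam1, L1cam and Alcam, which join cells by binding like or related molecules and are best known from growing axons, overlapped between the groups. Ncam1 lay at 8.41, 8.13 and 8.15 on the WT arrays and at 8.21, 7.89 and 8.06 on the 8KR arrays. Alcam, also a ligand of the lymphocyte protein Cd6, lay at 6.423, 6.113 and 5.997 on the WT arrays and at 6.094, 6.185 and 6.491 on the 8KR arrays. L1cam lay at 3.76, 3.79 and 4.24 on the WT arrays and at 3.88, 3.90 and 3.85 on the 8KR arrays. The mean of L1cam lay below the medians of the arrays, so a change in this gene could be hard to see. The 8KR arrays of Ncam1 tended lower, those of Alcam covered the same range as WT, and WT replicate 3 of L1cam stood above the other 5 arrays. The log2 differences were -0.18 for Ncam1 (95% interval -0.48 to 0.12), 0.08 for Alcam (-0.30 to 0.46) and -0.05 for L1cam (-0.40 to 0.30). These were the 3 widest intervals among the 10 genes, and that of Alcam reached 1.37-fold higher. Without WT replicate 3 the log2 difference of L1cam turned from -0.05 to 0.10, and that of Alcam changed sign without WT replicate 3 or 8KR replicate 3 (-0.01 and -0.04).

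Mcam and Bcam, the laminin binders, also did not pass. Mcam, a marker of pericytes and endothelium, lay at 4.82, 4.97 and 5.01 on the WT arrays and at 5.11, 5.03 and 5.15 on the 8KR arrays. Every 8KR array was higher, though by only 0.02 at the nearest, and the log2 difference was 0.17 (standard error 0.09, adjusted p = 0.356 from limma). Bcam, the Lutheran blood group protein, lay at 4.77, 4.97 and 4.86 on the WT arrays and at 4.76, 4.90 and 4.87 on the 8KR arrays. The groups of Bcam coincided, with a log2 difference of -0.03 (standard error 0.09) and a 95% interval of 0.848-fold to 1.14-fold. Mcam had a 95% interval of 0.971-fold to 1.30-fold.

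**Figure D3:**
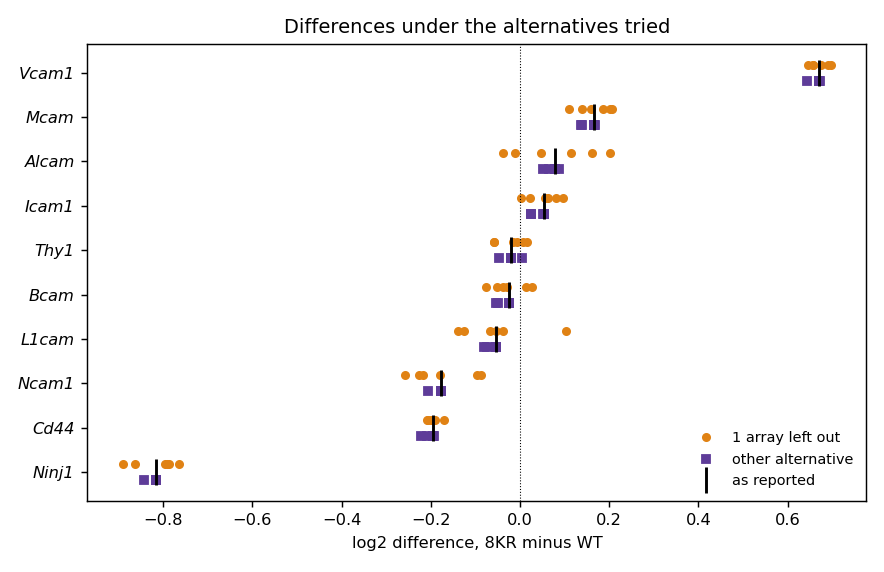
Log2 difference (8KR minus WT, horizontal axis) of each gene as reported (black line), with 1 array left out (orange) and under the other alternatives (purple). Vcam1 and Ninj1 keep their sides of 0 at every point, as do Mcam, Icam1, Ncam1 and Cd44, whereas Alcam, Thy1, Bcam and L1cam cross 0. The groups of Vcam1, Ninj1, Mcam and Cd44 did not overlap, so leaving out 1 array could not change their side. Changes of the filter, variance model, replicate block or threshold leave the difference itself unchanged.

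The genes beside the 10 on the chromosomes were compared, with 5 tested genes on each side in the order of the RefSeq annotation. Of the 10 neighbors of Ninj1 none passed by limma (1 had an unadjusted p under 0.05), and their log2 differences ran from -0.18 to 0.44. Of the 10 neighbors of Vcam1, S1pr1, a receptor for sphingosine 1-phosphate, fell (log2 difference -0.70, adjusted p = 0.0433 from limma), and the median of the neighbors was 0.00. No neighbor of Vcam1 or Ninj1 passed in the same direction as these genes, and 5 and 6 of the 10 neighbors lay on the same side of 0 as they did. Bcam lies beside other immunoglobulin-type adhesion genes. Its direct neighbor Nectin2 and the nearby Pvr, which encode a pair of related nectin-type molecules, rose by 0.64 and 0.72 on the log2 scale while Bcam had a log2 difference of -0.03. Of the neighbors of the others, Renbp rose beside L1cam, Sdhd fell beside Ncam1 and Trim44 fell beside Cd44. None passed by limma beside Icam1, Alcam, Mcam or Thy1, where 2, 2, 0 and 1 neighbors had an unadjusted p under 0.05. The counts were 3, 2, 4, 4 and 3 beside Vcam1, Ncam1, L1cam, Bcam and Cd44. Of all tested genes, 21.8% had such a p, and 5.39% passed by limma. The neighbors that passed are given as a description beside these shares. Mcam and Thy1 are among each other's neighbors, so their counts overlap.

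**Figure D4:**
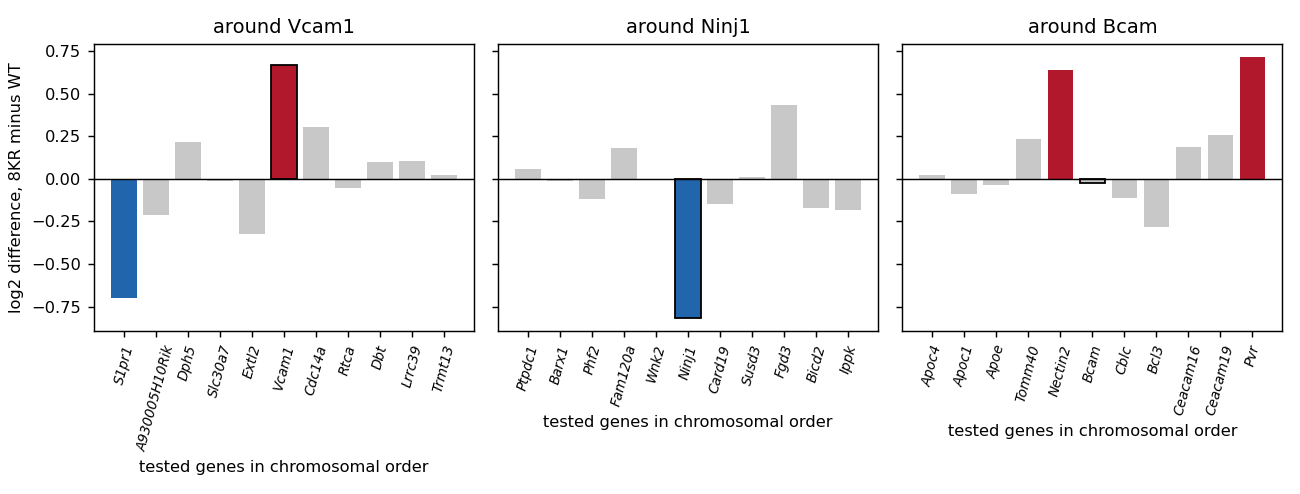
Log2 difference (8KR minus WT, vertical axis) of Vcam1, Ninj1 and Bcam (outlined bars) and of the 5 nearest tested genes on each side in chromosomal order (horizontal axis, not to scale). Red and blue bars passed the test and gray bars did not; no neighbor of Vcam1 or Ninj1 passed in the same direction as these genes, and Nectin2 and Pvr rose near Bcam.

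Genes that work with these molecules were described from 6 further lists of 180 genes, of which 164 were tested. Of these, 11 rose, 12 fell and 141 did not pass, which is 14.02% called beside 5.39% of all tested genes, and the median log2 difference was 0.01. These lists were written with earlier results of these data known, so the share called is a description and does not show enrichment. Each of the 6 arrays was left out in turn, and 8 to 10 genes then passed. Of the 23 genes, 7 passed in all 6 of these fits (Timp3, Cd34, Lama4, Cd24a, Actn4, Emb and Amigo2) and 9 in none of them.

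Of the 55 tested genes for other immunoglobulin-type molecules, 3 rose and 5 fell, 47 stayed short of the threshold, and the median log2 difference was 0.00. Amigo2 rose from 4.59 ± 0.15 to 5.95 ± 0.22 (SD, n = 3 each), or 2.57-fold. Nectin2, which binds other nectins at cell junctions, rose 1.56-fold, and Pvr rose 1.64-fold. Emb, which encodes embigin, a partner of monocarboxylate transporters, had a log2 difference of -0.95. Clmp, an adhesion molecule of the family of the coxsackievirus and adenovirus receptor, had a log2 difference of -1.12, from 7.37 ± 0.14 to 6.25 ± 0.20 (SD, n = 3 each). Cd47 and its receptor Sirpa, a pair that restrains uptake by phagocytes, both fell, with log2 differences of -0.72 and -0.55. In the 6 fits that left out an array, Nectin2 and Cd47 each passed in 1, Clmp in 3, and Pvr and Sirpa in none.

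Of 24 ligands and receptors of the 10 molecules, 1 rose, 2 fell and 21 did not pass, with a median log2 difference of 0.07. Lama4, a laminin chain that Mcam binds, fell from 5.63 ± 0.04 to 4.24 ± 0.08 (SD, n = 3 each), whereas Lama5, the laminin chain that Bcam binds, had a log2 difference of 0.00 with a 95% interval of -0.22 to 0.21. Lgals9, a galectin that binds Cd44, rose 1.75-fold, and Egfr, the EGF receptor, fell by 1.10 on the log2 scale. Lgals9 passed in 3 of the 6 fits that left out an array and Egfr in 1. The integrin genes Itga4 and Itgb1, whose products form the receptor of Vcam1, had log2 differences of 0.14 and 0.11 and did not pass. Itga4 had a mean log2 intensity of 3.18, close to the filter of 3.0, and Itgb1 one of 9.64. Itgal and Itgb2, which make the receptor of Icam1 on white blood cells, had differences of 0.16 and -0.39 and did not pass. Their mean log2 intensities of 3.84 and 4.23 lay below the medians of the arrays, so a change in Itga4, Itgal or Itgb2 could be hard to see.

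Of 20 genes of hyaluronan, the ligand of Cd44, Habp4 rose by 0.68 on the log2 scale and 19 did not pass, with a median of 0.00. Habp4 encodes an intracellular protein named for its binding of hyaluronan. The hyaluronan synthases Has1 and Has2 had log2 differences of 0.00 and -0.17. Of 21 linkers between such molecules and the cytoskeleton, 3 rose and 1 fell, with a median of 0.07. Actn4 and Actn1, actin crosslinkers that bind the tail of Icam1, rose by 0.81 and 0.37 on the log2 scale, and Ctnna1, the catenin that ties junctions to actin, rose by 0.53. Ank3, an ankyrin of the kind that anchors L1cam, fell by 0.60 on the log2 scale. With an array left out, Habp4 passed in 1 of the 6 fits, and Actn1, Ctnna1 and Ank3 in none. Ezr, Rdx and Msn, the ERM proteins that tie Cd44 to actin, had differences of 0.54, -0.25 and 0.01, and none of them passed.

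Of 19 genes for proteases that shed such molecules from the surface and for their regulators, 2 rose, 2 fell and 15 did not pass, with a median of 0.09. Timp3, an inhibitor of Adam10, Adam17 and matrix proteases, fell from 10.96 ± 0.05 to 9.27 ± 0.04 (SD, n = 3 each), or to 0.311 of the WT intensity. Mmp14, a membrane protease that cuts Cd44, rose 1.52-fold, and Adam12 rose 1.503-fold. Adam10, which sheds L1cam and Cd44, fell by 0.47 on the log2 scale, whereas Adam17, which sheds Vcam1, had a difference of -0.14 and did not pass. In the 6 fits that left out an array, Mmp14 passed in 1, and Adam10 and Adam12 in none.

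Of 25 tetraspanins and other adhesion molecules outside the immunoglobulin family, Cd24a rose and Cd34 and Pdpn fell, with a median of -0.10. Cd34, a sialomucin of stromal and blood progenitor cells, was at 9.69, 9.63 and 9.83 on the WT arrays and at 8.15, 7.86 and 7.80 on the 8KR arrays. No array of 1 group came near the other, and the log2 difference was -1.78 (standard error 0.12, adjusted p = 0.0025 from limma). Cd24a, a small lipid-anchored glycoprotein, rose 2.71-fold, from 4.71 ± 0.10 to 6.15 ± 0.13 (SD, n = 3 each). Pdpn, podoplanin, which binds the ERM proteins, had a log2 difference of -0.47 and passed in none of the 6 fits that left out an array.

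**Figure D5:**
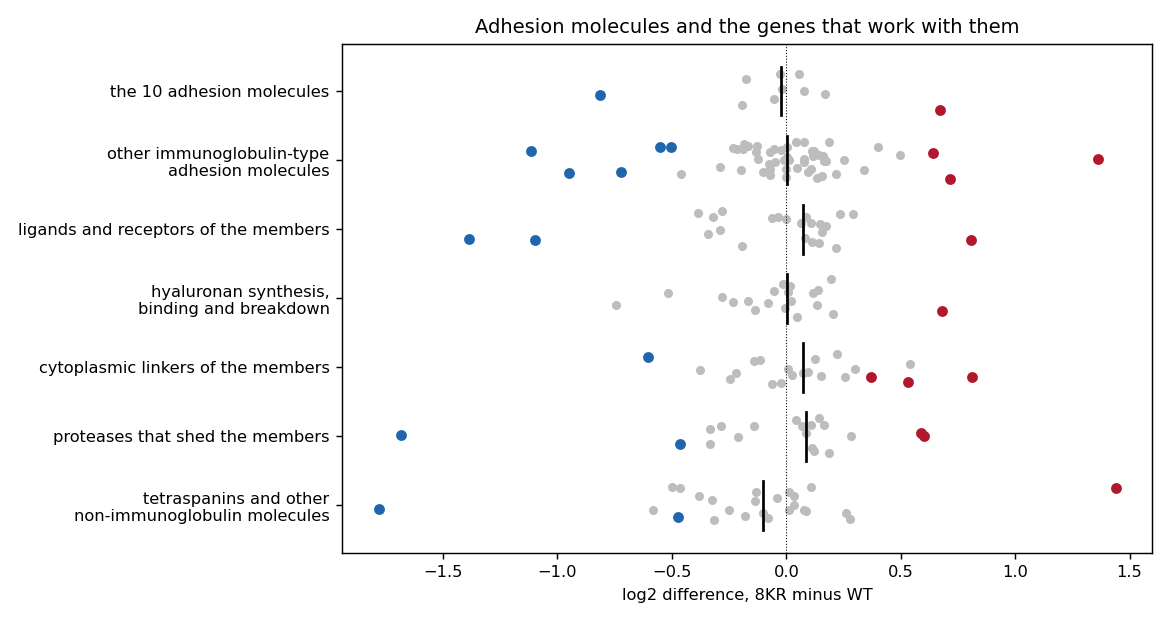
Log2 difference (8KR minus WT, horizontal axis) of the 10 adhesion molecules and of each tested gene in the 6 further lists, with 1 point per gene, red and blue where the test was passed and gray where it was not, and the median of each list as a black line. The medians lie between -0.10 and 0.09, and genes that passed lie on both sides of 0 in every row except the hyaluronan genes, where Habp4 alone passed.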

How the data were processed

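RNA of 6 samples of NIH/3T3 cells, 3 WT and 3 8KR by their labels, was hybridized to Affymetrix arrays. The deposited values are log2 intensities, normalized and scaled by the authors. The submitters' processing notes list Affymetrix Power Tools 1.12.0. How the arrays were normalized is not stated in the sources used here. As in the study's methods, a probe set was kept where the mean of at least 1 group exceeded 3.0. The 28543 kept were fitted with limma 3.58.1 under R 4.3.3 (functions lmFit and eBayes, group alone in the model), with Benjamini-Hochberg adjustment. The platform annotation gives a single symbol for 21789 probe sets, several for 1621 and no symbol for 12147. Symbols were updated through Entrez identifiers with RefSeq (GRCm38.p6). A gene was represented by its brightest probe set. The fit was tested on simulated data. The labels call the samples biological replicates, and p-values measure the spread between them only. The number of arrays limits the precision. The genes and lists were chosen with earlier results of these data known. Named genes were the 10, up to 6 called genes per list by adjusted p, called markers and the 3 brightest, and called neighbors. Genes of the lists that did not pass were named for their role as partners, and Pvr as a neighbor of Bcam. Alternatives covered the filter, normalization, variance model, array weights, replicate block, left-out arrays, probe sets and threshold. Figures were drawn with matplotlib 3.10.9.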

Additional observations from a re-analysis of the deposited data

How the results depend on the processing

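Of the 10 adhesion molecules, 2 passed as reported and also without the filter, with a group mean above 5.0, with quantile normalization, with arrays centred on their medians, with an intensity trend, with array weights, over probe sets with a single symbol and with the mean of a gene's probe sets. With a group mean above 5.0, only 7 of the 10 were tested. Each of the 10 has 1 probe set, so the 2 settings on probe sets left their log2 differences unchanged by design. At a threshold of 0.01, 1 passed, Vcam1, and 7 genes of the further lists passed in place of 23. With 1 array left out, 1 to 2 of the 10 passed, and 8 to 10 genes of the further lists. With the replicate number as a block (replicate block), 0 of the 10 passed by limma (2 had an unadjusted p under 0.05), with adjusted p of 0.0834 for Vcam1 and 0.0929 for Ninj1 at the same differences, and 2 genes of the further lists passed. The labels give replicate numbers and do not say whether these pair the samples. Deviations from the group means correlated at -0.01, 0.01 and 0.00 between arrays of the same number. These correlations run over all kept probe sets, so they cannot exclude a pairing that affects some genes. The block also takes degrees of freedom from a fit of 6 arrays. Over all genes, 924 passed as reported, 1737 with a group mean above 5.0, 1528 with an intensity trend, 1638 over single symbols, 210 at a threshold of 0.01, 63 with the block and 274 to 293 with 1 array left out. Differences near 0 changed sign in genes that did not pass: Thy1 was at 0.0047 with quantile normalization, and with 1 array left out Thy1 ranged from -0.059 to 0.016, Bcam from -0.075 to 0.027, Alcam from -0.038 to 0.20 and L1cam from -0.14 to 0.10; the cause was not tested.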
